A study of Mus musculus with 3 samples.

Results

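The places in the mouse mammary gland genome where at least 3 binding regions of estrogen receptor α (ERα) lay close together are described here. A shared region was the interval covered by peaks of both ERα ChIP-seq replicates, which had to overlap by at least 1 bp. Shared regions whose midpoints were no more than 12.5 kb from the next were joined into a chain, and the members were chosen by the positions of the peaks alone, as the regions in chains of 3 or more. Of 6243 shared regions on chromosomes 1 to 19 and X, 893 were members of 246 chains, 1176 formed 588 pairs and 4174 were single. Since the positions define the chains, their number, size and span are a description and not a result.

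In ChIP-seq an antibody pulls down a protein together with its DNA, the DNA is sequenced, and places with more reads than input DNA are called peaks. Mammary glands came from wild-type BALB/c females, named BALB/cJ in the methods of the study, whose ovaries were removed at 6 weeks. After 10 days of rest they received 100 ng of 17β-estradiol under the skin, and the glands were taken 2 h later. Each of the 2 ERα ChIP replicates pooled glands of 6 mice, and 1 input library of the same treatment served both. No library from vehicle-treated mice was used here, so the regions describe ERα binding after estradiol and not a change with it. The lists hold peaks and no expression values, and the tissue could not be checked against marker genes. Each list gives every peak a score that is 10 times the log10 of the inverse p-value in that replicate, with a lowest value of 80.02 in replicate 1 and 80.05 in replicate 2. A score rises with enrichment and with sequencing depth, and the lists do not hold the depth.

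ERα is a nuclear receptor that binds DNA when estradiol is bound to it. Its palindromic binding sequence is the estrogen response element (ERE), in which both arms of the receptor dimer contact an inverted repeat. ERα also reaches DNA through partner factors such as AP1, and most of its binding lies in enhancers far from start sites, where several bound elements may lie side by side. In the mammary gland, estradiol acts through ERα in luminal epithelial cells, and the progesterone receptor and Greb1 are among its classical target genes.

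The ERE was searched as GGTCANNNTGACC on both strands of a 400 bp window around each midpoint, with at most 1 mismatch over its 10 fixed bases. The first set of sequences shows the closest matches in chains beside Pgr, the gene of the progesterone receptor, and in Greb1, which encodes a cofactor of ERα. All are from the plus strand of mm9, 5′ to 3′, with the 13 bases of the closest match in capitals and 20 bases to each side. Regions are ranked within a chain by the geometric mean of their scores in both replicates. The match was perfect in rank 2 of the Greb1 chain, had 4 mismatches in rank 1 of the Pgr chain of 8 and had 1 mismatch in the others.
chain farthest upstream of Pgr, rank 1 (chr9:8693361-8693413): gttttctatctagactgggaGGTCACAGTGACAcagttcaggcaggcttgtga
Pgr chain of 8, rank 1 (chr9:8733188-8733240): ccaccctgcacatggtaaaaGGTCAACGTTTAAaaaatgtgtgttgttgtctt
Pgr chain of 8, rank 2 (chr9:8752315-8752367): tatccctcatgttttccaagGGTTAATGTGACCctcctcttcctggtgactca
Pgr chain of 8, rank 3 (chr9:8751596-8751648): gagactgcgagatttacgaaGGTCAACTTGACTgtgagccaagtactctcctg
chain past the 3′ end of Pgr, rank 1 (chr9:8970489-8970541): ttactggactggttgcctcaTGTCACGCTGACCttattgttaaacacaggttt
Greb1 chain, rank 1 (chr12:16771693-16771745): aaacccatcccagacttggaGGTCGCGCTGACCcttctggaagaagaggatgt
Greb1 chain, rank 2 (chr12:16767317-16767369): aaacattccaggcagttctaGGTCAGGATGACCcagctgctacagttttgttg

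The other set comes from the chains with the most members or with the strongest single members. The matches of Zmiz1 rank 2, 7SK, Tprg, A730020M07Rik, Col4a1 and Ccdc162 had no mismatch, and those of Zmiz1 rank 1, Gm17716, Zcchc10 and Gas6 rank 2 had 1. The strongest region upstream of Gas6 is shown with its AP1 consensus, TGACTCA, in capitals, because its closest ERE match had 3 mismatches. A match is a string of letters in the window and was not tested as a binding site.
Zmiz1 chain, rank 1 (chr14:26292704-26292756): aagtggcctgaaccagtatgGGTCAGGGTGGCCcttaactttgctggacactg
Zmiz1 chain, rank 2 (chr14:26329094-26329146): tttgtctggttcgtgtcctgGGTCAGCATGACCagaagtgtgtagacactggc
Gm17716 chain, rank 1 (chr14:26005196-26005248): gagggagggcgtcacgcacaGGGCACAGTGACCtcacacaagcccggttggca
7SK chain, rank 1 (chr6:100010035-100010087): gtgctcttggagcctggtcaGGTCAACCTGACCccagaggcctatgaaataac
Tprg chain, rank 1 (chr16:25220812-25220864): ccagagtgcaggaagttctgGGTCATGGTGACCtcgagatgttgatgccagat
A730020M07Rik chain, rank 1 (chr3:121341163-121341215): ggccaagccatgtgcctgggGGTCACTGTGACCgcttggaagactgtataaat
Col4a1 chain, rank 1 (chr8:11285570-11285622): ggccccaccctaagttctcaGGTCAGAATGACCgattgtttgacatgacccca
Ccdc162 chain, rank 1 (chr10:41284873-41284925): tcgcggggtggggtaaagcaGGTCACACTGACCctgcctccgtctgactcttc
Zcchc10 chain, rank 1 (chr11:53128355-53128407): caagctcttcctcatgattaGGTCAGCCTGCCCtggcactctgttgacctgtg
Gas6 chain, rank 2 (chr8:13530025-13530077): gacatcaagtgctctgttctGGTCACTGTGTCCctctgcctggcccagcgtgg
Gas6 chain, rank 1 (chr8:13507051-13507097): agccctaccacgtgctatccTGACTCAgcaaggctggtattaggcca

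A stretch at the start of chromosome 9, chr9:2999944-3036666, held 2 chains of 4 and 6 members in mostly repeated sequence. Of the 51-base words in these regions, the length of the reads, most occur more than once in the assembly. All 9 members with under 50% unique words were here, against 19 of all 6243 regions. None of these 10 members held an ERE, and their scores lay between 107 and 322. Without them 883 members in 244 chains remained, and the main values are given with and without them. The chains at Gm10801 and in Tnxb, also partly repeated with medians of 73.0% and 75.2% unique words, were kept throughout.

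Chains were mostly small. There were 155 chains of 3, 56 of 4 and 35 of 5 or more, and the largest had 13 members. A chain spanned 11.8 kb at the median, with quartiles of 6.95 and 16.5 kb and extremes of 1.32 and 72.7 kb. Neighbouring midpoints lay 3.73 kb apart at the median. All chains together covered 3.09 Mb, 0.121% of the assembled bases of these chromosomes, of which the members themselves covered 573 kb. Just inside the threshold the largest gaps were 12426, 12400 and 12377 bp, and just outside it the smallest were 12533, 12537 and 12540 bp. The last 1 kb inside held 41 gaps and the next 1 kb held 54, so no break in spacing marked the threshold.

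**Figure D1:**
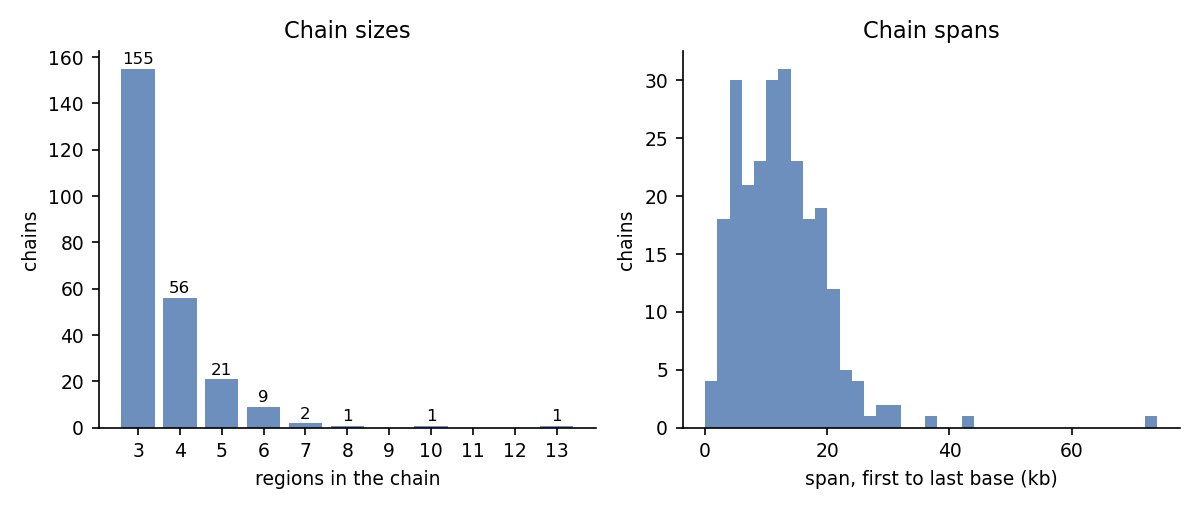
Number of chains by member count (left) and by span from the first to the last base in kb, in 2 kb bins (right), for all 246 chains. Chains of 3 and 4 make up 211 of them, and the chain of 13 members is also the one of 72.7 kb.

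Chromosomes 2 and 11 held 23 chains each and chromosome 4 held 22. Per assembled length, chromosome 19 had the most, 20.6 chains per 100 Mb, followed by chromosome 11 with 19.4. The X chromosome had 1 chain. The share of a chromosome's regions that were in chains ran from 3.55% on chromosome 18 to 22.4% on chromosome 19. Another chain lay within 100 kb of 41 of the 246 chains.

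Chain members had somewhat higher scores than shared regions as a whole. Their median score was 285 in replicate 1 and 211 in replicate 2, against 246 and 178 for all shared regions. Pairs, just below the size threshold, had medians of 258 and 194, and single regions 236 and 169. Medians without the repeated stretch of chromosome 9 were 289 and 211. Members were also wider, 601 bp against 559 bp at the median. Replicate 1 scores were 1.33 times those of replicate 2 at the median of members and 1.31 times for all shared regions, so the replicates differed about as much in chains as elsewhere.

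Scores differed widely between the members of a chain. The strongest members had medians of 820 in replicate 1 and 594 in replicate 2, those of rank 2 had 343 and 262, and those of rank 3 had 177 and 136. Members of rank 4 or lower were near rank 3, at 172 and 130. Ranks 3 and lower thus lay below the medians of single regions in both replicates, while the strongest lay above the upper quartiles of single regions, 440 and 316. The ranks come from the same scores, so this order is fixed by the ranking. Ranking also moves the highest and lowest members of a chain away from unranked single regions, so that comparison is a description. Among the 10% of shared regions with the highest geometric mean score, 785 or more, were 109 of the 246 strongest members and 30 of the 647 others, so most chains had no member at that level. In 27 chains at least 2 members reached that level.

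**Figure D2:**
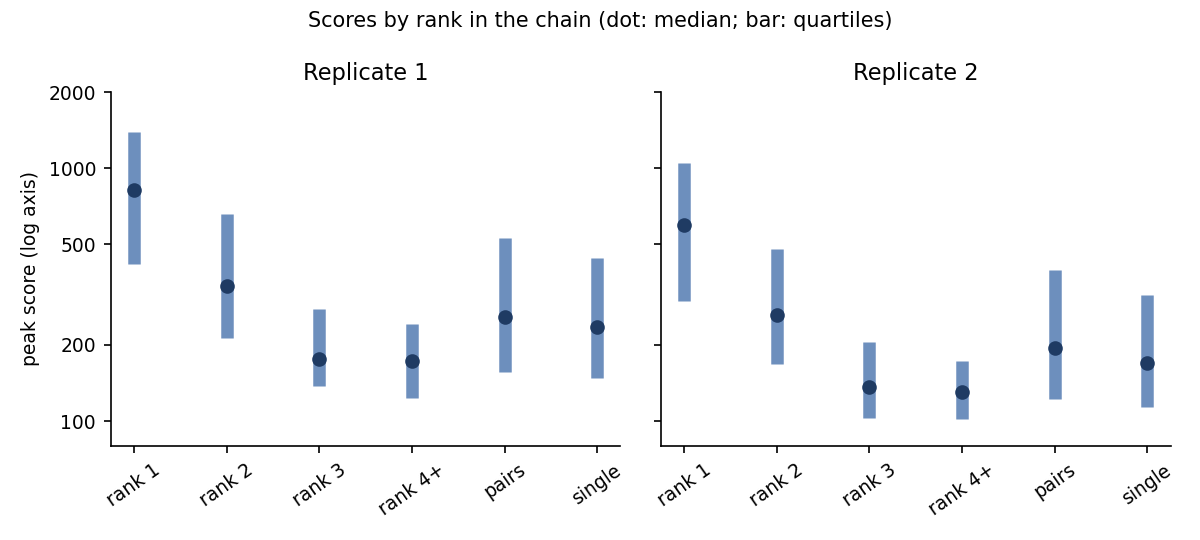
Peak scores (log axis) in replicate 1 and replicate 2 for members of rank 1, 2, 3 and 4 or lower in their chain, beside regions in pairs and single regions, as medians (dots) and quartiles (bars). Members of rank 3 and lower sit below single regions in both replicates.

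Whether a chain had the same leading region in both replicates was read by picking it in each replicate separately. In 29 chains the highest score was shared by several members, because 1 wide peak of a replicate overlapped several peaks of the other and gave its score to each interval. Such sharing of a peak touched 93 members in 41 chains. Of the other 217 chains, 180 had the same strongest member in both replicates, or 82.9% (95% exact Clopper-Pearson interval, 77.3 to 87.7). These intervals cover counting error only, and regions of a chain are not independent of each other. The share was 81.7% of 142 chains of 3, 87.5% of 48 chains of 4 and 81.5% of 27 chains of 5 or more, with intervals that overlap. In the 37 chains with different leaders, the strongest member by geometric mean stood 1.07 times above rank 2 at the median, against 2.26 times in the 180 with the same leader. The split and this ratio use the same scores, so a small lead where leaders differ follows from the split.

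The lead of the strongest member was then measured in the replicate that had not picked it. Picked in replicate 1, the strongest member had 1.92 times the replicate 2 score of the region next to it in the replicate 1 order at the median, with quartiles of 1.14 and 2.91, and was above it in 202 of 246 chains, level in 3 and below in 41. Picked in replicate 2, it had 2.01 times the replicate 1 score, and was above in 207, level in 5 and below in 34. By geometric mean the strongest member held 50.6% of the summed score of its chain at the median. In 97 chains it was under 1.5 times rank 2, and in 34 it was at least 4 times.

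Position within a chain did not set the strongest member apart. Of the 155 chains of 3, it was the first along the chromosome in 55, the middle one in 51 and the last in 49. Of the 56 chains of 4, it was an inner member in 29. Rank 2 lay 6.24 kb from it at the median. The other members had 36.1% of its score at the median when under 2 kb away, 33.6% at 2 to 5 kb, 36.4% at 5 to 10 kb and 27.3% farther away, with quartiles that overlap widely. The strongest members were wider, 716 bp against 566 bp for the others.

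Chain members held an ERE less often than shared regions as a whole. An ERE with at most 1 mismatch was in the window of 200 of 893 members, 22.4% (19.7 to 25.3), against 31.1% of all shared regions, 28.3% of regions in pairs and 33.8% of single regions (32.3 to 35.2). Without the repeated stretch the share of members was 22.7%. In windows 5 kb to each side of members that overlapped no peak it was 1.03%, so the members' share still lay far above their surroundings. Of the 246 chains, 98 had no member with an ERE, 104 had 1, 36 had 2 and 8 had 3. In 64 of the 104 chains with 1 such member, it was the strongest.

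The strongest members held this sequence more often than the others. An ERE was present in 39.8% of strongest members (33.7 to 46.3) and in 15.8% of the others (13.0 to 18.8), and by rank it fell from 24.4% at rank 2 to 10.6% at rank 3 and 10.3% at rank 4 or lower. In 75 chains the strongest member had an ERE and rank 2 had none, in 37 the reverse held, in 23 both had one and in 111 neither did. A perfect ERE was found in 29 of 246 strongest members, 11.8%, and in 8 of 647 others, 1.24%, against 6.60% of all shared regions. Where an ERE was present it lay close to the midpoint, 37.5 bp away at the median in strongest members and 32 bp in the others. Strongest members with an ERE had a median geometric mean score of 976 and those without one 533. Among the other members, those under 2 kb from the strongest had an ERE in 9 of 114 cases, 7.89%, and those over 10 kb away in 36 of 192, 18.8%.

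Score and ERE rose together in all groups, so regions of like score were set side by side. At geometric mean scores under 150, 11.7% of chain members and 24.3% of single regions had an ERE. From 150 to 300 the shares were 12.9% and 31.3%, from 300 to 600 24.9% and 40.7%, and from 600 up 46.5% and 56.3%. The intervals of members and single regions did not overlap in the lower 3 bands and overlapped slightly in the highest, where those of members ran from 39.4 to 53.7 and those of single regions from 52.0 to 60.6. Pairs had 11.8%, 24.4%, 34.5% and 57.1% in the same order. Between strongest and other members the gap was smaller within a band. It was 50.7% against 37.1% from 600 up and 31.3% against 20.6% from 300 to 600, and in every band the intervals overlapped.

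**Figure D3:**
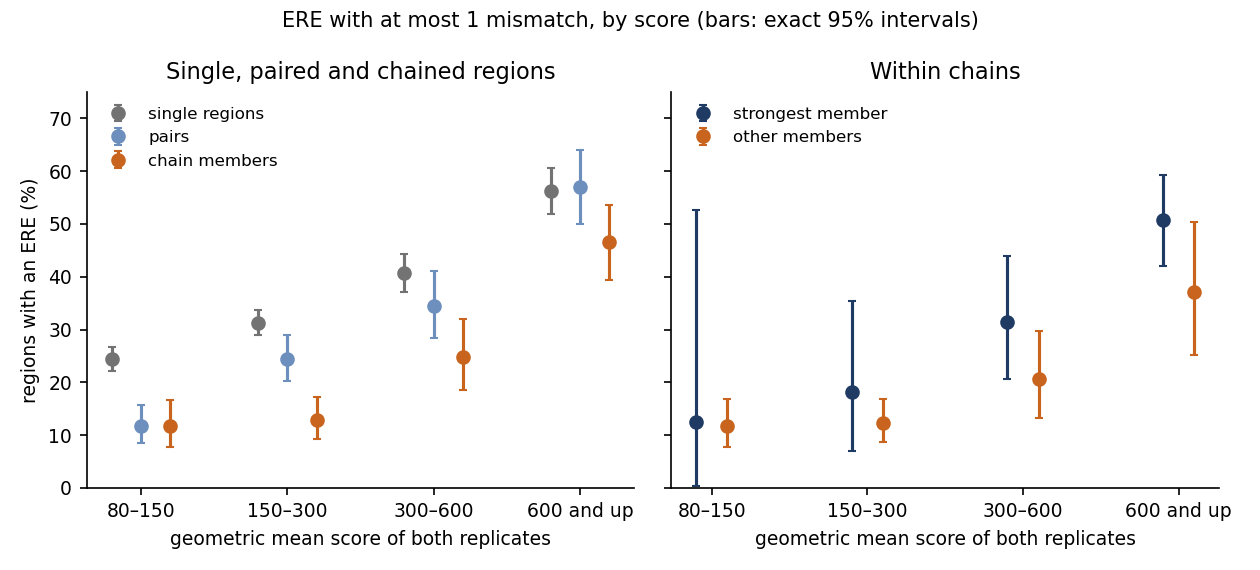
Share of regions with an ERE (at most 1 mismatch, in %) by geometric mean score of both replicates, with exact 95% intervals, for single regions, pairs and chain members (left) and for the strongest and the other members of chains (right). Chain members lie below single regions in each band, by the widest margin at 150 to 300.

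The other consensus sequences did not separate the strongest member from the rest. They were searched on both strands of the same windows without mismatch, AP1 as TGACTCA or TGAGTCA, SF1 as CAAGGTCA, PAX2 as GTCACG and FOXA1 as TATTTAC or TGTTTAC. SF1 contains an arm of the ERE, GGTCA, and the first letters of PAX2 lie within that arm, so these matches can overlap an ERE. AP1, the dimer of Fos and Jun proteins, matched in 37 of 246 strongest and 102 of 647 other members, against 16.7% of all shared regions. SF1 matched in 8.94% and 8.66%, against 9.35%, and PAX2 in 10.2% and 9.58%, against 9.16%. FOXA1, the site of a forkhead pioneer factor, matched in 10.2% and 11.9%, against 14.0%. In the windows 5 kb away AP1 matched in 7.98%, SF1 in 3.09%, PAX2 in 4.51% and FOXA1 in 9.59%, so AP1, SF1 and PAX2 were more frequent in members than beside them. At least 1 of the 5 sequences was in 50.8% of members (47.5 to 54.2), against 59.0% of all shared regions, and in 61.4% of strongest and 46.8% of other members.

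**Figure D4:**
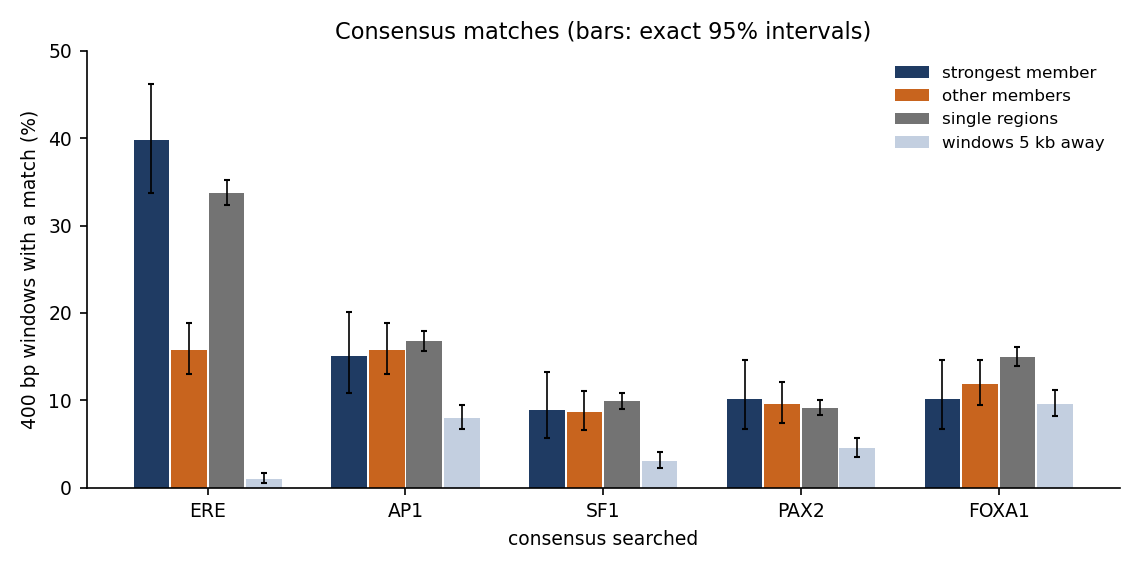
Share of 400 bp windows with a match (%) to each of 5 consensus sequences, in strongest members, other members, single regions and windows 5 kb from members that overlap no peak, with exact 95% intervals. The ERE is the only one of the 5 whose intervals for strongest and other members do not overlap.

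Relative to genes, members lay much as shared regions did. Midpoints were intergenic in 51.1% of members and 53.3% of all shared regions, intronic in 43.2% and 42.8%, and exonic in 5.71% and 3.89%, with introns and exons of protein-coding genes. Without the repeated stretch of chromosome 9, the exonic share was 5.21% of members and 3.82% of all shared regions. Of the 782 members within 100 kb of a transcription start site (TSS), 7.42% were proximal, from 1 kb upstream to 400 bp downstream, against 7.32% of all shared regions in that range. Without the repeated stretch these were 6.74% and 7.23%, so members and all regions did not differ in a steady direction. The strongest member was proximal in 13 chains, and 44 chains had any proximal member. In 97 chains, 39.4%, all members lay in 1 protein-coding gene. For 4 of these the only such gene was Gm20388, a gene model of over 4 Mb, which leaves 93. All members were intergenic in 112 chains.

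Within 100 kb, the TSS nearest to a member belonged to 273 genes, of which 196 were protein-coding, or 0.877% of the 22350 protein-coding genes of the annotation. Any TSS within 100 kb of a member was found for 3.16% of them. Beside these backgrounds, 3 of 26 estrogen response genes were nearest to a member, Greb1, Rara and Krt19, and 5 had a member within 100 kb, with Pgr and Igfbp4 added. In lists this short a single gene shifts a share by several percent, and the difference from the background was not tested. None of 9 AP1 family genes was nearest, and Jund and Atf3 were within 100 kb. None of the 22 annotated mammary transcription factors was nearest, and Cebpb, a regulator of ductal growth, was within 100 kb. None of 28 growth factor and paracrine genes was nearest, and Errfi1, an inhibitor of the EGF receptor, and Csf1, a macrophage growth factor, were within 100 kb. The genes within 100 kb were 22.2%, 4.55% and 7.14% of these 3 lists, few in each. Nearest to any shared region, in a chain or not, were 3, 11 and 14 genes of these lists. Of the 26 estrogen response genes, 9 were nearest to any shared region, so the counts for members partly reflect where ERα regions lay in general. Of 9 keratins, Krt19 was nearest, and Krt7, Krt14, Krt15 and Krt19 were within 100 kb. Krt14, Krt15 and Krt19 are neighbours beside the same chain, and Krt19 is also counted among the estrogen response genes.

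The surroundings of Pgr held 3 chains with 16 regions, 5 of them with an ERE, beside a share of 31.1% over all shared regions. Only the chain of 8 had Pgr as nearest gene. The chain of 8 lay at chr9:8729169-8758672, 142 to 171 kb upstream of the gene, and Pgr was the nearest gene of all its members. Its strongest region scored 2599.8 in replicate 1 and 2085 in replicate 2 and had no ERE. Rank 2 scored 1946 and 2148, and rank 3 had 511 in replicate 1 and lay on the same replicate 2 peak as rank 2, and both held an ERE. The replicates thus disagreed on the strongest member here. A chain of 4 lay farther upstream, 189 to 207 kb from the start of Pgr, with 986 and 1071 in its strongest region. The nearest gene of its members was Trpc6. The other chain of 4 lay 2.85 to 7.55 kb past the end of Pgr, with Gm16485 as nearest gene, and its strongest region scored 2349.7 and 2059.

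In Greb1, on chromosome 12, 3 intronic regions formed a chain at chr12:16760002-16772118, 35.9 to 47.4 kb into the gene. Measured from the nearest start site, that of a Greb1 transcript beginning within the gene, rank 1 lay 7.78 kb and rank 2 3.33 kb upstream and rank 3 3.69 kb downstream. The region of rank 1 scored 1367 and 674, that of rank 2 927 and 554 and that of rank 3 348 and 201, in replicates 1 and 2. The perfect ERE was in rank 2, rank 1 had 1 mismatch and rank 3 had no ERE. Another chain of 3 lay 47.4 to 53.2 kb upstream of Greb1, with E2f6 and Rock2 as nearest genes, and none of its members had an ERE.

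Zmiz1, which encodes a coregulator of nuclear receptors related to the PIAS proteins, held the largest chain. Its 13 regions lay at chr14:26280444-26353102, all in introns of Zmiz1, between 2.26 and 74.1 kb from the start of the gene, although noncoding genes had the nearest TSS. The strongest scored 2991 and 2303 and rank 2 2052 and 1679, and these were the members with an ERE. Rank 3 scored 937 and 576, and the other 10 were weaker, down to 90.8 in replicate 1 and 85.2 in replicate 2. AP1 matched in 5 members and SF1 in 2. The span held 17 peaks of replicate 1 and 14 of replicate 2, for 13 regions. A chain of 7, nearest to the noncoding gene Gm17716, and a chain of 4 lay farther upstream of Zmiz1.

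The chain in Rara, the retinoic acid receptor α gene, had 3 intronic regions, of which rank 1 scored 429.95 and 316. Krt19, a keratin of luminal cells, had a chain of 4 from its intron to 11.1 kb upstream, with a strongest region of 884 and 389 and no ERE in any member. A chain of 3 lay 150 to 154 kb upstream of Trp63, the gene of the basal cell regulator p63, and its strongest region scored 742 and 866 and held an ERE. Trp63 was its nearest gene, beyond the 100 kb used for counts.

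The other large chains differed in how much a single region led them. The chain of 10 in introns of Gm12824, at chr4:114182723-114214334, had a strongest region of only 822 and 624, with no ERE, and its weakest member, at 112 and 85.8, held the only ERE. In Ell, a gene of an elongation factor of RNA polymerase II, 7 intronic regions lay within 13.7 kb, led by 2028 and 1463, and the perfect ERE was in rank 2, at 973 and 522. In Ccdc162, 6 intronic regions spanned 43.1 kb, and those of rank 1 (1961 and 1547) and rank 2 (1788 and 1226) both held an ERE. In Col4a1, whose product with that of neighbouring Col4a2 forms collagen IV of basement membranes, 1 region with a perfect ERE scored 1814 and 1145, and rank 2 had 391 and 213. The chain of 6 upstream of Errfi1, nearest to the noncoding Gm13049, had 1349 and 903 at rank 1 and 963 and 797 at rank 2, and no member held an ERE. The chain of 6 nearest to Gm14321, downstream of Cebpb, had 3 intervals on 1 replicate 2 peak of 1389, which replicate 1 split into peaks of 1957, 219 and 174.

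**Figure D5:**
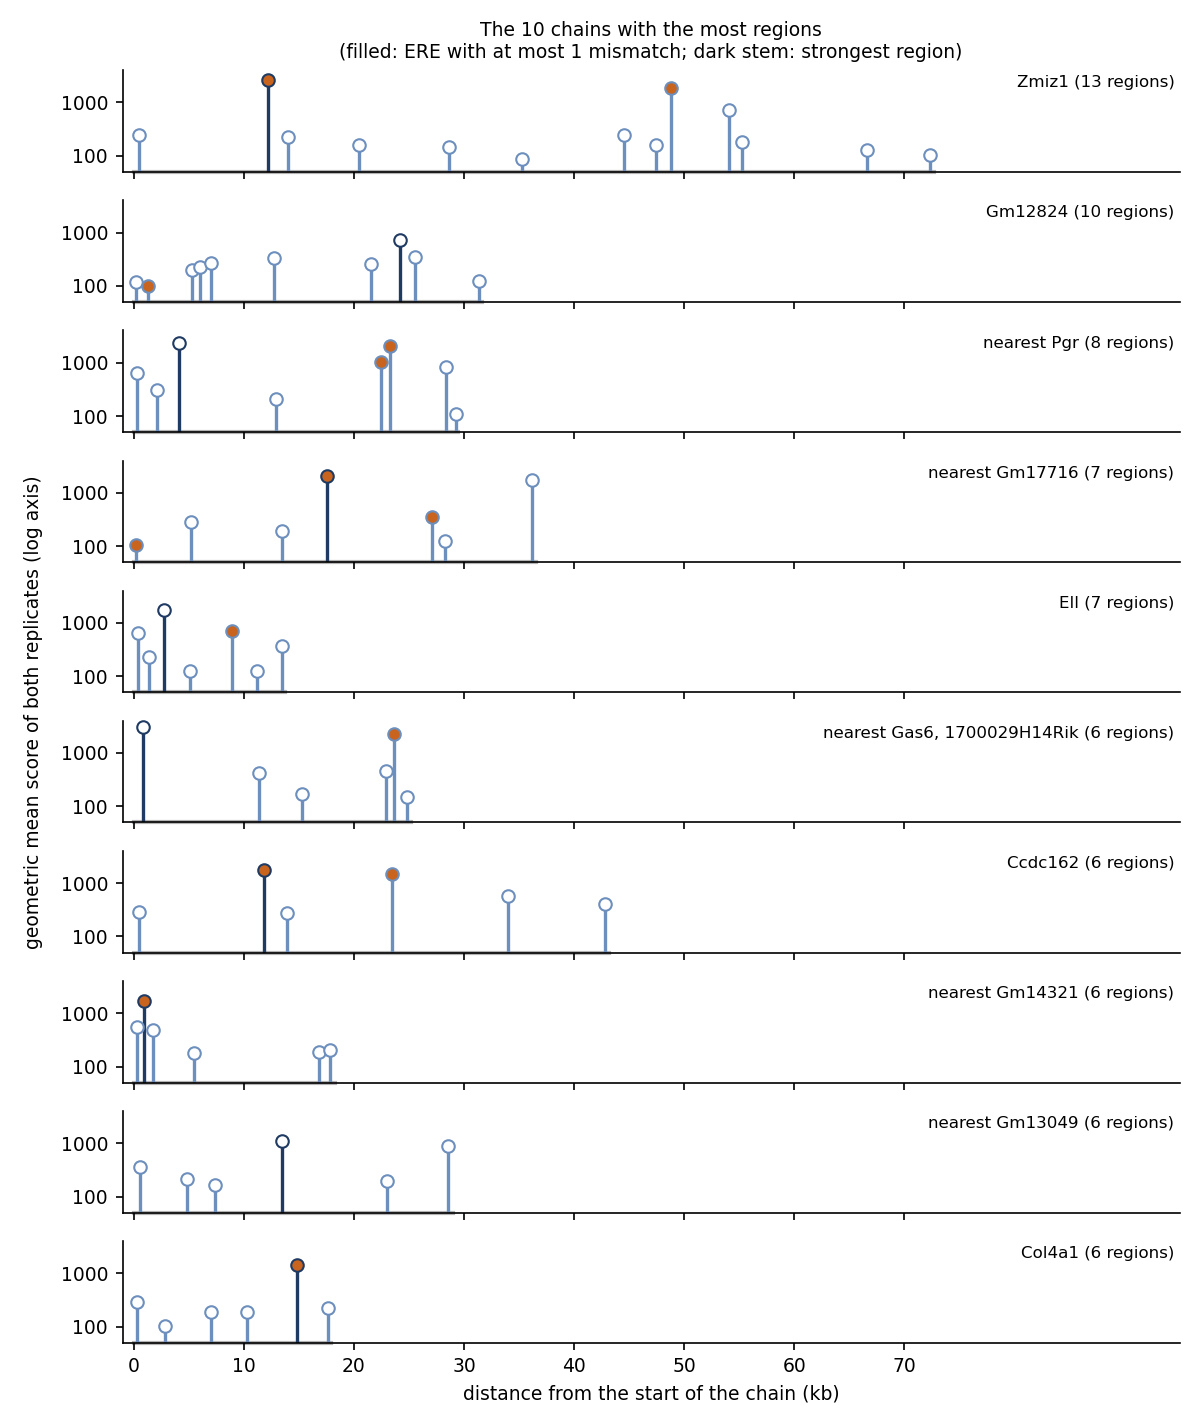
The 10 chains with the most regions (of 9 chains of 6, the 5 with the highest summed score), each from its own start (distance in kb), with the geometric mean score of both replicates (log axis), filled circles for regions with an ERE of at most 1 mismatch and dark stems for the strongest region. The strongest region is filled in 5 of the 10, and in the 4 chains of 6 not shown it has no ERE. Of all 246 strongest members, 39.8% held an ERE.

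The chains with the highest single members had a score of 3100 in 1 or both replicates in most cases, a value that 17 peaks had in replicate 1 and 8 in replicate 2, and so they are not ranked among themselves. In 5 chains the strongest member had 3100 in both replicates. Upstream of Gas6, which encodes a ligand of the receptors Axl, Tyro3 and Mer, a chain of 6 had such a region 12.6 kb from the start site and a rank 2 region with 2668 and 1946 and an ERE. Another was in Ssr3, a subunit of the endoplasmic reticulum translocon complex, in a chain of 5 that also covered the end of the potassium channel subunit gene Kcnab1, where rank 2 had 1716 and 1023. Of the remaining 3, 1 lay upstream of Tprg by 66.0 kb, 1 was 166 kb from a copy of the small nuclear RNA 7SK, and both had a perfect ERE, and 1 was intronic in Synpo, the gene of an actin-associated protein, with 1 mismatch. Their other members were far weaker, 591 and 395 at rank 2 for Tprg, 732 and 494 for 7SK and 540 and 261 for Synpo.

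Single regions also stood far above their neighbours at Banp and at Hspa4. The chain nearest to Banp and Gm22 had 3100 and 2414 at rank 1 and 119.9 and 241 at rank 2. The chain between Hspa4, a gene of the Hsp70 family, and Zcchc10 had 2802 and 2689 at rank 1, 12.1 times rank 2 by geometric mean. In A730020M07Rik, an intronic region with a perfect ERE scored 3100 and 2356, and rank 2 had 715 and 637. The chain of 4 between Hint1 and Gpx3, which encodes a secreted glutathione peroxidase, was led by 2724 and 2587 at 17.2 kb upstream of Gpx3 and had no ERE in any member. In these 10 chains with the highest strongest members, 8 of the 10 leaders held an ERE, 3 of them perfect. They were picked by score, with which the ERE share rose in all groups. At geometric mean scores from 600 up, 50.7% of strongest members, 57.1% of pairs and 56.3% of single regions had an ERE.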

How the data were processed

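ERα ChIP-seq peak lists of 2 replicates were used. According to the notes of the submitters, single-end reads of 51 nt were placed on mm9 by BWA, and MACS (version not given in the sources used here) called the peaks of each replicate with the input as control, at p 1e-08. The deposited score is 10 times the log10 of a peak's inverse p. The depth is unknown from the lists.

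Intersections, chains, the nearest TSS (any transcript, GENCODE for NCBIM37, the assembly of mm9) and consensus matches were computed with Python 3.11.15 (numba 0.67.0, scipy 1.17.1, numpy 2.4.6, pysam 0.24.0, pandas 2.3.3) and samtools 1.23.1, figures with matplotlib 3.10.9. The code was tested on simulated data. Shares have exact Clopper-Pearson intervals at 95%. No test was run over regions. The chains named are the 10 with the most members (ties by summed score), the 10 with the highest strongest member, and those with a member nearest to a gene of the lists. Results that need an item withheld for evaluation were left out. Members and lists were chosen with earlier results of these data known. Alternatives were other chaining distances, score thresholds, overlaps, merged intervals, single replicates, motif settings and TSS sets. Without 3 genes not annotated under their symbols (Tfap2a, Tfap2b, Tfap2c), the mammary transcription factors were 22.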

Additional observations from a re-analysis of the deposited data

How the results depend on the processing

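Counts of chains followed the settings that define them. The 246 chains became 121 at a chaining distance of 5000 bp, 387 at 25000 bp and 43 with both scores at least 200, and 260 to 460 with 1 replicate alone. Regions in chains numbered 401, 1498 and 142 under the same settings, and 936 to 1726 with 1 replicate. The largest chain had 7 members at 5000 bp, 8 with both scores at least 100 and 5 with both at least 200, against 13. The median span was 5.38 kb at 5000 bp and 21.5 kb at 25000 bp. Protein-coding genes nearest to a member numbered 90, 361 and 37 under the same 3 settings. The proximal share of members was 4.40% with only the most 5′ TSS of each gene, a set for which all shared regions were not counted.

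The ERE share of all members was 4.14% without a mismatch, 57.2% with at most 2 and 33.1% with both scores at least 200. For strongest members these were 11.8%, 70.3% and 53.5%, and for the others 1.24%, 52.2% and 24.2%, with 11.8% at a chaining distance of 5000 bp. The share was higher in strongest than in other members under all 12 settings. In all shared regions it was 6.60%, 67.4% and 43.1%, above that of members each time. The strongest member was the same in both replicates in 89.5% of chains with both scores at least 200. The median geometric mean score of members, 237, was then 531, and the same members had medians of 211 to 285 in the scores of a single replicate. Leaving out the 2 repeated chains, counting tied leaders and picking in replicate 2 were chosen after seeing the data, and none of these moved a value beyond the interval of the main value or, for counts, beyond 1.5 times. The cause of the other shifts was not tested. The 2 pooled replicates give no spread between animals.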
